A study of Mus musculus with 8 samples.

Results

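The small leucine-rich proteoglycans are a family of secreted matrix proteins built on a shared leucine-rich core, many of which carry chondroitin, dermatan or keratan sulfate chains. Here 10 family genes were followed by name, Bgn, Dcn, Aspn, Fmod, Lum, Kera, Prelp, Omd, Ogn and Epyc, among 47643 named entries of the expression table. RNA-seq covered 4 libraries of cultured bone marrow mesenchymal stem cells (MSCs), 2 labelled WT and 2 labelled cKO. The cKO label stands for Prx1-Cre;Mettl3fl/fl. The WT samples are given as wild type in the sample labels and as Mettl3fl/fl littermates in the study's text. Mettl3 encodes the catalytic subunit of the RNA N6-methyladenosine (m6A) methyltransferase, and the Prx1 promoter drives Cre in limb bud mesenchyme and its descendants, so cells of another origin in the same culture would keep the gene. By that text both groups share the floxed allele, and by the labels the C57BL/6 strain and 2 days in osteogenic medium, which held dexamethasone at 100 nM, ascorbic acid at 50 µg/ml and β-glycerophosphate at 5 mM. The animals' age and the number of mice behind a library are not given in the sources used here. A separate MeRIP-Seq experiment on wild type MSCs supplied 1 list of m6A peaks from 2 immunoprecipitates and 2 inputs. By the labels these cells too had spent 2 days in osteogenic medium with the same additives at the same concentrations.

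The family is divided by sequence and by exon structure. Class I members (biglycan, decorin, asporin) bind collagen and, except for asporin, carry chondroitin or dermatan sulfate. Class II members (fibromodulin, lumican, keratocan, PRELP, osteomodulin) are mostly keratan sulfate proteins with tyrosine sulfate near the amino end, and class III members (osteoglycin, epiphycan) have shorter repeat domains. In skeletal tissues these proteins control the width and spacing of collagen fibrils and hold growth factors such as TGF-β in the matrix.

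The libraries held 23948200 to 34069223 counts. Mettl3 read 17.6 and 16.9 CPM (counts scaled to library size) in the WT-labelled libraries and 17.5 and 16.3 in the cKO-labelled ones, with a log2 fold change of −0.03 (SE 0.0929, edgeR adjusted p = 0.824). The deletion removes 2 exons, which a count over the whole gene cannot show, so the groups are called by their labels. The WT-labelled pair varied by 12.3% beyond counting noise (biological coefficient of variation) and the cKO-labelled pair by only 1.9%. The chi-square statistic of the pair was 32.6 times its expectation in the first case and 1.82 times in the second, which does not tell separate cultures from 1 RNA sample prepared or sequenced again. P-values therefore measure the spread between these libraries, which may be technical. The 7 marrow stromal markers summed to 652 to 893 CPM over the 4 libraries. Among them Pdgfra read 108 to 130 CPM and Prrx1 134 to 289 CPM, but Lepr at most 1.24 CPM. Macrophage markers were far more abundant, at 16320 to 21950 CPM in sum over 7 genes. In such a mixed culture, fewer cells of a type and less RNA per cell cannot be told apart.

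Most of the family was expressed, and its mRNA pool was smaller and of another make-up in the cKO-labelled libraries. Summed over the 10 genes, TPM (a level per transcript length, scaled to the same total in every library) came to 2410 and 2494 in the WT-labelled and 1577 and 1576 in the cKO-labelled libraries. Bgn made up 36.5% and 33.1% of this sum in the WT-labelled libraries and 75.5% and 75.4% in the cKO-labelled ones. Dcn made up 17.5% and 20% against 1.02% and 1.07%, and Fmod 18.8% and 17.6% against 2.42% and 2.49%. The class II share was 34.8% and 34.7% against 9.79% and 10.1%, whereas the class III share stayed between 9.78% and 10.6% in all 4 libraries. No test was run on these shares, which sum to a whole and so depend on each other. They also depend on the length used. With the deposited gene length, an alternative chosen after seeing the data, Bgn averaged 616 TPM in the WT-labelled and 855 in the cKO-labelled libraries. Dcn averaged 703 and 26.1, Fmod 795 and 68.6, and Ogn 452 and 305. On that scale Bgn was a smaller part of the sum in both groups, and the class III share was larger in the cKO-labelled libraries.

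**Figure D1:**
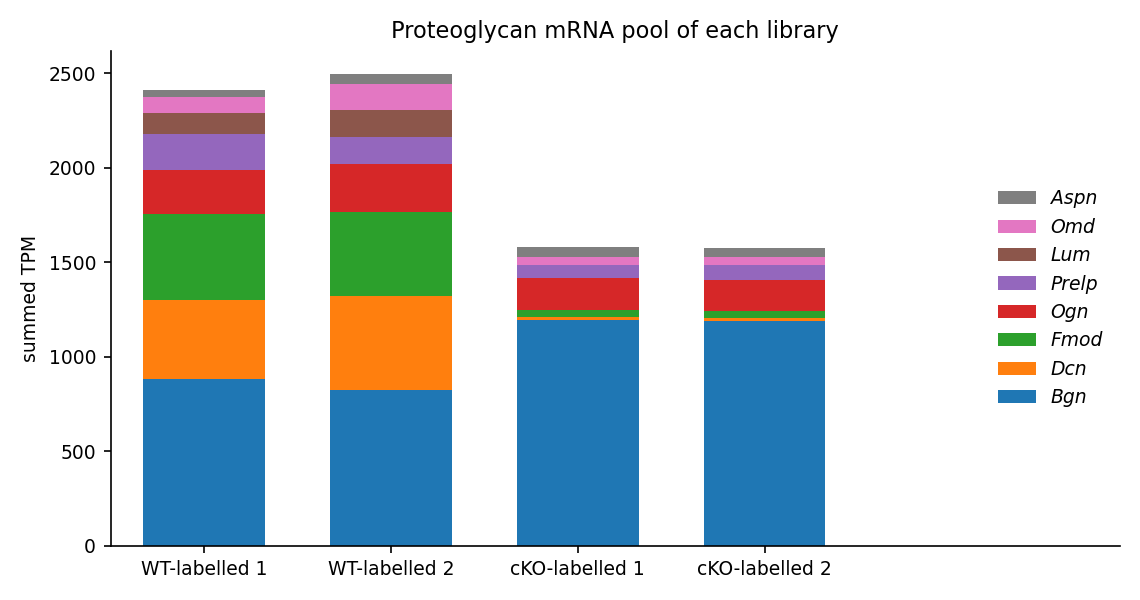
Summed TPM (linear axis from 0) of the 8 members above 0.4 TPM, stacked by gene, in each of the 4 libraries. The bars reach about 2410 and 2494 in the WT-labelled and 1577 and 1576 in the cKO-labelled libraries, and the Dcn and Fmod blocks are thin in the latter.

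In the WT-labelled libraries the order of mean level was Bgn (853 ± 38.4 TPM, SD, n = 2), Dcn (460 ± 54.4), Fmod (446 ± 9.67), Ogn (245 ± 13.8), Prelp (166 ± 30.4), Lum (129 ± 20.8), Omd (111 ± 39.2) and Aspn (41.9 ± 10.1). Dcn and Fmod had overlapping ranges, as did Prelp and Lum, and Lum and Omd, so these neighbours in the order are not separated. In the cKO-labelled libraries Bgn (1189 ± 2.20 TPM) was followed by Ogn (166 ± 2.50), Prelp (73.3 ± 2.81), Aspn (48.2 ± 0.269), Omd (43.8 ± 0.0919), Fmod (38.7 ± 0.750), Dcn (16.5 ± 0.509) and Lum (0.965 ± 0.148), with no overlap between neighbours. Dcn thus went from the second to the seventh place, and Aspn from the eighth to the fourth. The first place in the WT-labelled libraries depends on the length used. With the deposited gene length of 6099 bases for Bgn in place of the transcript length behind the TPM, Fmod (795), Dcn (703) and Bgn (616) were the first 3 in that order by mean rebuilt TPM, an alternative chosen after seeing the data.

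**Figure D2:**
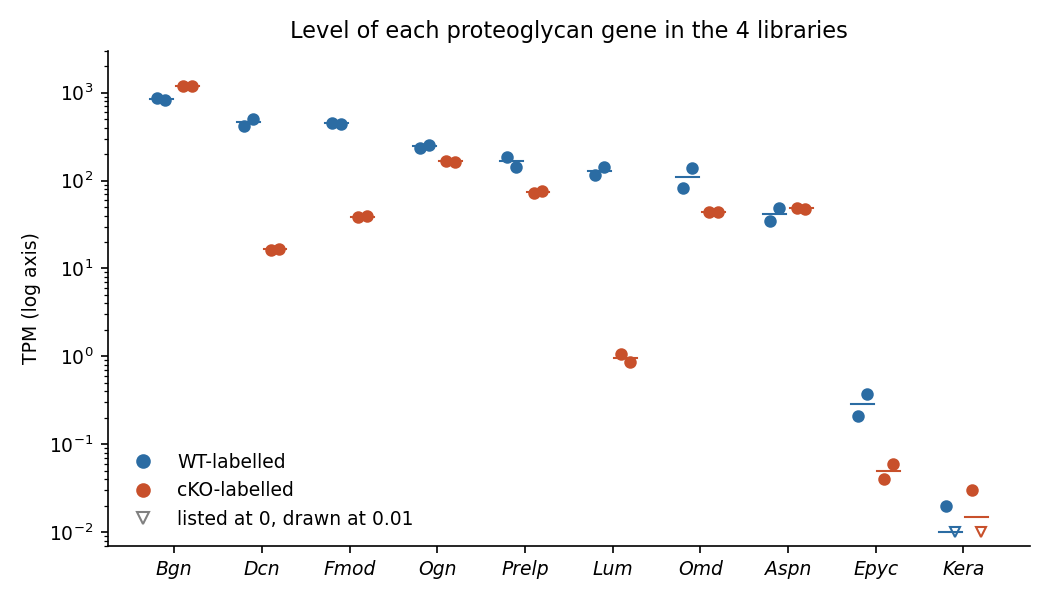
TPM on a log axis for the 10 members in the 4 libraries, points for libraries and short lines for group means (n = 2), with values listed at 0 drawn as open triangles. Lum, Dcn and Fmod are far lower in the cKO-labelled libraries, Bgn is higher, and Epyc and Kera lie below 0.4 TPM in every library.

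Of the 10 members, 8 passed the filter on low counts and 7 of these passed an adjusted p of 0.05 in edgeR's quasi-likelihood test, 6 lower and 1 higher in the cKO-labelled libraries. Over all 15327 genes tested, 30.5% passed, 16.8% lower and 13.7% higher. The median log2 fold change was −1.39 over the 8 members tested and −0.0038 over all genes. The groups did not overlap for 7 of the 8 members, beside 68.9% of all genes tested. All log2 fold changes below are fitted on counts, as cKO-labelled over WT-labelled, with edgeR adjusted p-values over all genes tested.

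**Figure D3:**
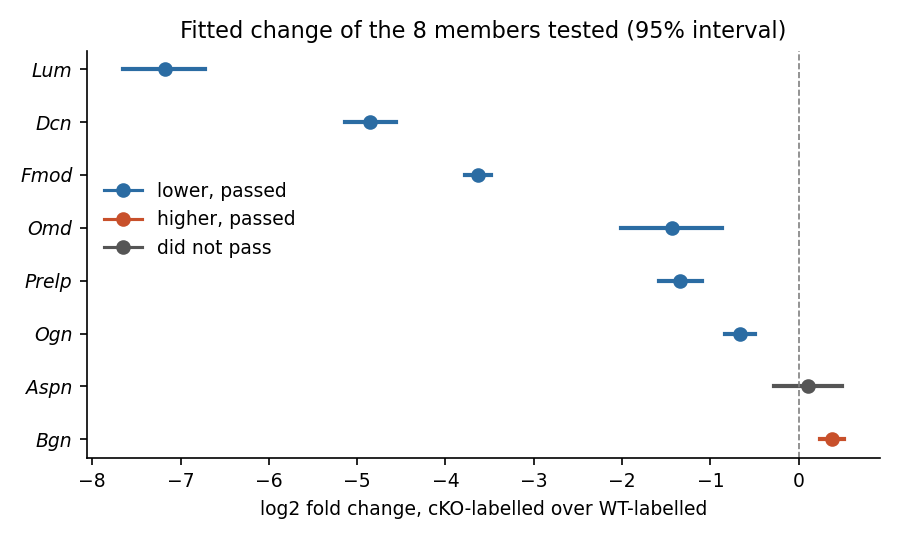
Log2 fold change of each of the 8 members tested (points) with its 95% interval (bars), cKO-labelled over WT-labelled, 2 libraries a group. The intervals of Lum, Dcn and Fmod lie entirely below −3, that of Aspn spans 0, and Bgn is the only member whose interval lies above 0.

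Among the class I genes the direction differed from gene to gene. Decorin (Dcn, ENSMUSG00000019929), which binds type I collagen and carries a single glycosaminoglycan chain, read 421 and 498 TPM in the WT-labelled and 16.1 and 16.8 TPM in the cKO-labelled libraries. Both cKO-labelled values lie far below either WT-labelled value. The count fit gave a log2 fold change of −4.85 (SE 0.119, adjusted p = 4.1e-06), a level 28.8-fold lower (95% interval 23.6 to 35.2). Of all genes tested, 0.496% fell by more.

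Biglycan (Bgn, ENSMUSG00000031375), the close relative of decorin that usually carries a pair of chains and is abundant in bone matrix, read 880 and 825 TPM against 1191 and 1187 TPM. Both cKO-labelled libraries were above both WT-labelled ones. The log2 fold change was 0.38 (SE 0.0563, adjusted p = 0.00424), a 1.30-fold rise. This call rests on both cKO-labelled libraries: without the first the adjusted p was 0.129, without the second 0.118, and with the pair summed to 1 library 0.115, at log2 fold changes of 0.38, 0.39 and 0.39. Bgn lies on chromosome X (GRCm38, 73483602 to 73495933, plus strand). Of the sex-linked markers, Xist read 801 and 527 CPM in the WT-labelled and 814 and 802 CPM in the cKO-labelled libraries (adjusted p = 0.276). Among the Y-linked ones Ddx3y and Eif2s3y were at 0 in every library, Uty had at most 0.0413 CPM, and Kdm5d read 1.18 and 0.495 CPM against 1.07 and 1.29 CPM (adjusted p = 0.473).

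Asporin (Aspn, ENSMUSG00000021388), which binds collagen and TGF-β and has no chain attachment site, read 34.8 and 49.1 TPM in the WT-labelled and 48.4 and 48.0 TPM in the cKO-labelled libraries, so that the groups overlap. Its log2 fold change was 0.10 (SE 0.159, 95% interval −0.28 to 0.49, adjusted p = 0.673). The sign depended on which WT-labelled library was kept: −0.14 (adjusted p = 0.00488) without the first and 0.39 (adjusted p = 2.44e-13) without the second. With 1 library in a group, these fits take their spread from the other pair.

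Biglycan and decorin are the most alike of all member pairs, with 56.9% identical residues over 353 aligned positions of their translated coding sequences. Bgn and Aspn shared 53.0%, Dcn and Aspn 50.6%. The 3 class I genes therefore gave a rise, a fall and no call. Fmod and Lum, the most alike of the pairs that fell together within class II, shared 47.5%.

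All 4 class II genes tested were lower in the cKO-labelled libraries. Lumican (Lum, ENSMUSG00000036446), a keratan sulfate proteoglycan of cornea and connective tissue that regulates fibril assembly, read 115 and 144 TPM in the WT-labelled libraries and 1.07 and 0.860 TPM in the cKO-labelled ones. The counts behind these values were 5387, 5810, 34 and 36. The log2 fold change was −7.18 (SE 0.192, adjusted p = 6e-06), a level 145-fold lower (95% interval 105 to 200), and 0.117% of all genes tested fell by more. On the scale log2(TPM + 1), which compresses low levels, it was −6.05.

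Fibromodulin (Fmod, ENSMUSG00000041559), a keratan sulfate proteoglycan of tendon and cartilage that binds collagen fibrils, read 453 and 440 TPM against 38.1 and 39.2 TPM. The replicates were within a few percent of each other in both groups. The log2 fold change was −3.63 (SE 0.0619, adjusted p = 1.6e-06), a level 12.4-fold lower (95% interval 11.1 to 13.7). Its rank was 171 of 15327 from the largest fall.

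Smaller falls were measured for the other class II genes. Prelp (ENSMUSG00000041577), which anchors basement membranes to connective tissue, read 187 and 144 TPM in the WT-labelled and 71.3 and 75.3 TPM in the cKO-labelled libraries. Its log2 fold change was −1.34 (SE 0.10, adjusted p = 0.00029). Osteomodulin (Omd, ENSMUSG00000048368), a keratan sulfate protein of mineralized matrix, read 82.9 and 138 TPM against 43.9 and 43.7 TPM, with no overlap but a wide gap within the WT-labelled pair. Its log2 fold change was −1.44 (SE 0.236, 95% interval −2.01 to −0.87, adjusted p = 0.00607). Keratocan (Kera, ENSMUSG00000019932), the keratan sulfate proteoglycan of cornea, had 1 count in the first library of each group and 0 in the others, so no fold is given.

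In class III, osteoglycin (Ogn, ENSMUSG00000021390), also called mimecan, was high in both groups. It read 235 and 255 TPM in the WT-labelled and 168 and 164 TPM in the cKO-labelled libraries, which do not overlap. Its log2 fold change was −0.66 (SE 0.0701, adjusted p = 0.00114), the smallest of the 6 falls. Epiphycan (Epyc, ENSMUSG00000019936), a proteoglycan of growth plate cartilage, had 8 and 12 counts against 1 and 2 and did not pass the filter. The ratio of the summed counts, 20 against 3 and scaled to library size, was 6.03 with an exact 95% counting interval of 1.79 to 31.7, which covers counting error only.

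Chondrocyte markers moved with these falls. Of 10 markers 9 matched an entry, all 9 were tested and 8 were lower, with a median log2 fold change of −5.84. Their summed level was 3805 and 3908 CPM in the WT-labelled and 87.1 and 86.2 CPM in the cKO-labelled libraries. Acan, the aggrecan core protein, read 325 and 489 CPM against 1.11 and 0.628 CPM, and Sox9, the chondrogenic transcription factor, 47.7 and 61.8 CPM against 14.4 and 13.5 CPM. None of the 9 was at 0 in any library. Several members, among them Fmod, Prelp and Epyc, are themselves expressed in cartilage, and the part that chondrocyte-like cells had in the falls of the members was not tested.

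Markers of osteoblasts and osteocytes were lower for 5 of 7 genes tested and none was higher, and Spp1 set their summed level of 6163 and 15010 CPM against 5865 and 5801 CPM. All 6 adipocyte markers were higher, at 612 and 629 CPM in sum against 1091 and 1114 CPM. Of 7 marrow stromal markers 4 were higher and 2 lower. The largest of these changes was that of Thy1, a stromal surface protein, which read 3.93 and 1.91 CPM against 74.7 and 69.4 CPM (4.59, adjusted p = 7.3e-05). Of 7 macrophage markers 2 were higher and none lower. The tendon markers, which would point to another cell type rich in Fmod, Dcn and Lum, summed to 7.45 and 8.81 CPM against 5.37 and 5.30 CPM. Of these, 0 of 3 tested were called (edgeR), but all 3 had lower values in the cKO-labelled libraries, with a median log2 fold change of −0.58. Tnmd was at most 0.473 CPM and Thbs4 at most 0.106 CPM, and neither passed the filter. Neutrophil, endothelial and erythroid markers stayed below 8 CPM in sum in every library. The part of these cell types in the members' values was not tested.

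The members lie in 3 clusters and 1 single locus (GRCm38). Dcn, Lum, Kera and Epyc follow each other on the plus strand of chromosome 10 within 203 kb (97479500 to 97682454). This stretch holds the pair with the largest falls, Lum and Dcn, beside Kera and Epyc, which had at most 12 counts in any library. Within 500 kb on either side lay 3 other protein-coding genes, none of which passed the filter. Aspn, Omd and Ogn lie on chromosome 13 within 80.1 kb (49544443 to 49624500), next to Ecm2, a relative of the family. Here Omd and Ogn fell, while Aspn (0.10) and Ecm2 (log2 fold change 0.20, SE 0.130, adjusted p = 0.289) did not pass. Cenpp spans all 4 of these genes on the opposite strand and had 45 counts or fewer in each library, so the little signal it has cannot be told apart from theirs without strand. Of 11 other genes tested within 500 kb of this cluster, 2 were higher and 1 lower. Prelp and Fmod lie on chromosome 1 within 138 kb (133910304 to 134048277). Optc, their neighbour that encodes opticin, was at most 0.621 CPM (log2 fold change 0.03, adjusted p = 0.973). Of 16 other genes tested within 500 kb there, 4 were lower and 2 higher. Among them Chil1 had a larger fall than any member (−7.91, adjusted p = 0.00031), from 4.29 and 6.37 CPM to 0.0413 and 0 CPM. Of 24 within 500 kb of Bgn, 5 were lower and 4 higher. The largest fall there was that of Xlr3b (−4.6, adjusted p = 0.00028). The 500 kb window was chosen, and Chil1 and Xlr3b were named, after the values were seen.

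The expression profiles most like those of Lum and Dcn belonged to genes with falls of similar size. Likeness was the distance between log2 CPM values centred on their mean over the 4 libraries, taken over 15190 genes with a count in every library, and a value of 0 would mean the same profile. For Lum the nearest were Gprc5a (distance 0.230), Hapln1 (0.438) and Ppp1r1b (0.497). For Dcn they were Mmp13 (0.199), Sox6 (0.228) and Nr4a1 (0.310). Hapln1, the cartilage link protein, is in the chondrocyte list, Sox6 encodes a partner of Sox9, and Mmp13 encodes a collagenase. With 4 libraries in 2 groups, the difference between groups sets most of such a distance.

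The collagens that these proteoglycans bind were mostly lower too. Of 13 fibrillar, beaded-filament and fibril-associated collagen genes tested, 10 were lower and 1 higher, with a median log2 fold change of −1.14. Col1a1, the main chain of bone collagen, averaged 1908 ± 17.2 CPM in the WT-labelled and 1242 ± 24.1 CPM in the cKO-labelled libraries (SD, n = 2; log2 fold change −0.62, SE 0.0554, adjusted p = 0.00058). Col12a1, a fibril-associated collagen, had −1.51 (adjusted p = 5.6e-05). The largest fall was that of Col2a1, the cartilage collagen, which is also in the chondrocyte list, from 2300.0 ± 148 to 49.7 ± 2.53 CPM (−5.53, SE 0.0868, adjusted p = 1.6e-06). Col3a1 was the gene that rose (0.30, SE 0.0669, adjusted p = 0.0185).

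By their median, the enzymes that build the sugar chains changed less than the collagens. All 22 genes for the linker region and for chondroitin or dermatan sulfate were tested. Of these, 9 were lower and 2 higher, beside 16.8% lower and 13.7% higher over all genes tested. Their median log2 fold change was −0.20. Chpf2, a chondroitin polymerizing factor and the most abundant, was at −0.32 (adjusted p = 0.0122), and its relative Chpf at −0.07 (adjusted p = 0.371). Chsy3, a chondroitin synthase, fell from 11.4 ± 0.253 to 2.12 ± 0.373 CPM (−2.41, SE 0.164, adjusted p = 0.00019). Chst15, which adds a further sulfate to chondroitin sulfate, rose from 5.16 ± 0.811 to 17.7 ± 0.221 CPM (1.78, SE 0.135, adjusted p = 3e-04). Of 12 genes for keratan sulfate and sulfate supply, 9 were tested, 3 were lower and 1 higher, with a median of −0.08. Papss2, which makes the sulfate donor, fell from 28.8 ± 6.25 to 5.85 ± 0.284 CPM (−2.30, adjusted p = 0.00028). Slc26a2, the sulfate transporter, fell as well (−0.72, adjusted p = 0.00209). B3gnt2, which extends the lactosamine chain, rose (0.57, adjusted p = 0.00119), and B4galt1 had 0.01 (adjusted p = 0.969).

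Proteases that process or cleave the core proteins went both ways. Of 13 genes 12 were tested, 5 were lower and 2 higher, with a median log2 fold change of 0.05. Mmp13 fell from 640 ± 27.8 to 24.5 ± 1.20 CPM (−4.70, SE 0.0779, adjusted p = 1.6e-06). Pcolce, which enhances the procollagen C-proteinase, fell too (−0.60, adjusted p = 0.00295). The aggrecanases moved in opposite directions: Adamts5 rose from 46.7 ± 16.5 to 130 ± 2.61 CPM (1.47, SE 0.211, adjusted p = 0.00368), whereas Adamts4 read 145 and 146 CPM in the WT-labelled and 10.9 and 10.6 CPM in the cKO-labelled libraries (−3.76, adjusted p = 1.6e-06). Adamts4 was named after its values were seen. Among receptors and growth factors bound by the core proteins, 16 of 17 matched an entry and 15 were tested, of which 5 were higher and 4 lower (median 0.11). Lrp1, an endocytic receptor of decorin, rose in the count fit (0.40, SE 0.102, adjusted p = 0.0274), but its TPM overlapped between the groups, at 1219 and 1301 against 1289 and 1356. Itgb1, the integrin β1 chain, was at 0.11 (adjusted p = 0.170). Kdr, a VEGF receptor bound by decorin, rose from 2.11 ± 0.485 to 9.38 ± 0.748 CPM (2.14, adjusted p = 0.00065). Igf1r, the IGF-1 receptor, fell from 58.9 ± 2.24 to 19.5 ± 0.487 CPM (−1.60, adjusted p = 4.5e-05). Kdr also marks endothelial cells, whose 4 listed markers summed to 1.18 and 1.45 CPM against 7.22 and 5.65 CPM, with 1 of 2 tested higher. Emcn carried that sum, at 0.296 and 0.743 CPM against 6.27 and 5.02 CPM, while Pecam1 (0.266 and 0.248 against 0.165 and 0.157 CPM, not tested) and Cdh5 (0.414 and 0.389 against 0.165 and 0.188 CPM, adjusted p = 0.128) had lower values in the cKO-labelled libraries.

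The 8 remaining relatives with leucine-rich repeats were expressed at low levels, 43.2 to 52.5 CPM in sum, and had a median log2 fold change of 0.02 with 2 lower and 2 higher. Tsku (tsukushi), the most abundant, rose slightly (0.40, SE 0.0855, adjusted p = 0.0161). Podn (podocan) rose from 2.74 ± 0.725 to 6.94 ± 0.125 CPM (1.33, adjusted p = 0.00534), and Chad (chondroadherin), a cartilage protein, fell from 2.39 ± 0.427 to 0.306 ± 0.0338 CPM (−2.96, adjusted p = 0.0016).

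**Figure D4:**
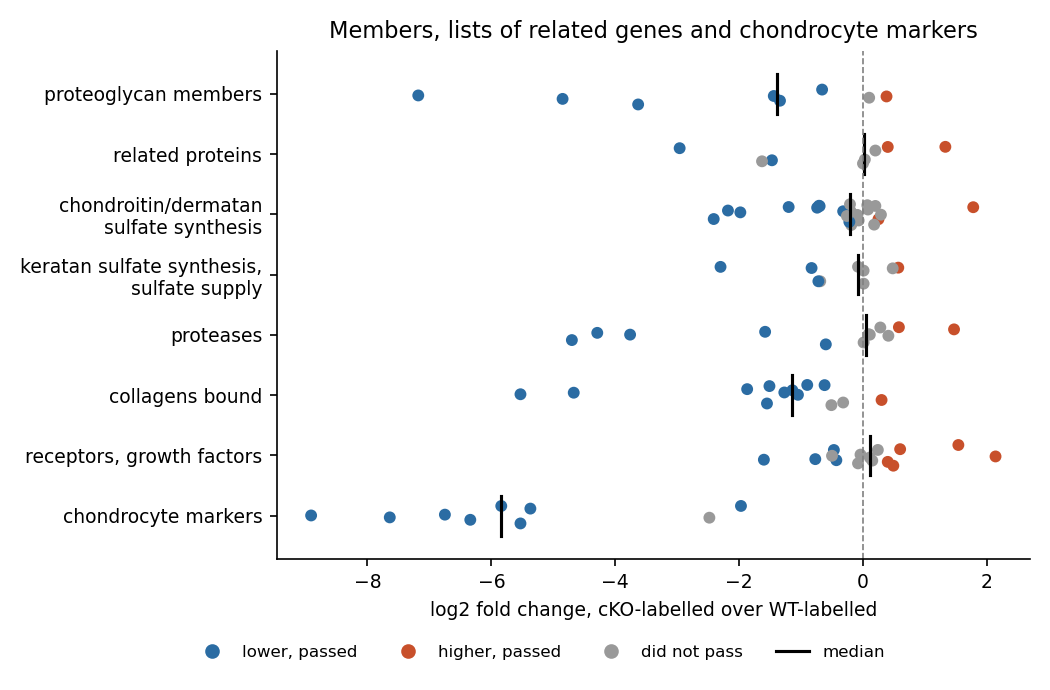
Log2 fold changes (cKO-labelled over WT-labelled) of every tested gene of the family, of the 6 lists of related genes and of the chondrocyte markers, 1 point per gene with a black line at each median and vertical scatter without meaning. The medians lie at −1.39 for the members, −1.14 for the collagens, −5.84 for the chondrocyte markers and between −0.20 and 0.11 for the other lists.

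m6A is a methyl mark that METTL3 and METTL14 place on adenosines of mRNA, most often within GGAC and similar sequences. Of the 10 members, Fmod and Bgn carried m6A peaks of the MSC list, 3 in all, and none had its summit in the other 8. Among the 1375 protein-coding genes at or above 100 TPM in the WT-labelled libraries, 36.0% had a summit in an exon, beside 2 of the 7 members at that level. No test was run. The list holds 10160 peaks and gives no replicate error, and it comes from wild type cells, so nothing is known here of m6A in the cKO-labelled cells.

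The Fmod peak covered 771 bases (mm9, chr1:135936713-135937483) in exon 2 of 3, the long coding exon of 987 bases. Its summit at 135937285 lay in the coding sequence, at −643 nt relative to the last coding base. The authors' caller gave a pileup of 155 (rank 458 of 10160), a fold enrichment of 2.58 (13.5% of peaks lower) and a −log10 q of 20.9 (rank 2867). The whole peak held 2 GGAC, 2 GAAC, 2 AGAC and 1 AAAC, and which adenosine carries the mark is not known from it. The 101 bases around the summit (mm9, chr1:135937235-135937335, plus strand) are shown because they hold 1 of these GGAC, in capitals, whose A is 3 nt from the summit.
Fmod summit: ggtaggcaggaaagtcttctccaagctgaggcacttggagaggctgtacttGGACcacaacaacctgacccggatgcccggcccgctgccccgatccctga

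That GGAC lies in the core of a leucine-rich repeat, a unit that all members share. The coding bases of the same repeat, aligned through the translated sequences, are shown for Fmod and 4 relatives, with GGAC in capitals.
Fmod codons 157 to 167: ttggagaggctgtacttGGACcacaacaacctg
Lum codons 118 to 128: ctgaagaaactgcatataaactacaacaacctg
Prelp codons 148 to 158: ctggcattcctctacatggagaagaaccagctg
Dcn codons 126 to 136: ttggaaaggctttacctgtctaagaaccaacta
Bgn codons 141 to 151: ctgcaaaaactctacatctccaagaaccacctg
Of the 10 members only Fmod has GGAC at this place, and none of the others has it anywhere in the 33 bases. Of those bases Lum shares 23 with Fmod, Dcn 22, Prelp 20 and Bgn 20. Lum has AAAC and Prelp GGAG at the position of the Fmod GGAC.

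Both Bgn peaks lay in the 3′UTR, in exon 8 of 8. The summit of the first (mm9, chrX:70740123-70740373) was 57 nt past the last coding base, and that of the second (chrX:70740865-70741087) 908 nt past it. Both were weak for this list, with fold enrichments of 1.77 and 1.70 (1.07% and 0.669% of peaks lower) and −log10 q of 6.74 and 5.88. Neither held GGAC. GAAC and AGAC, which METTL3 also uses, occurred once each in both, and AAAC once in the second. In these data the member that rose and the member with the third largest fall both carried a peak, and Lum and Dcn carried none.

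**Figure D5:**
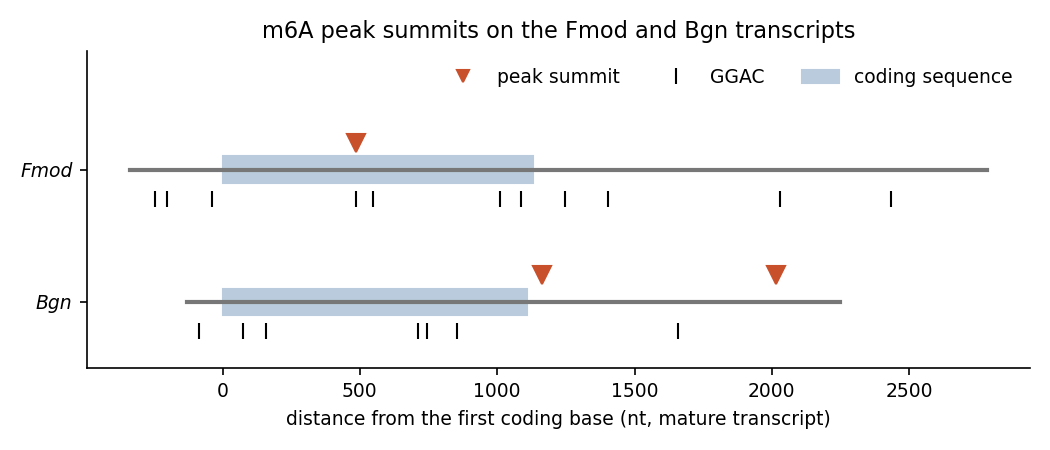
Mature Fmod and Bgn transcripts drawn to scale, with distance in nt from the first coding base, coding sequence as boxes, peak summits as triangles and every GGAC as a tick. The Fmod summit at 485 nt sits beside a GGAC within the coding sequence, and the Bgn summits at 1164 and 2015 nt lie past it, with no GGAC in their peaks.

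GGAC was unevenly spread over the family's transcripts. Lum had 2 in 2075 bases (0.964 per kb, lower than all but 2.77% of transcripts at or above 100 TPM), Ogn 1.97 per kb, Bgn 2.94, Fmod 3.53 and Dcn 4.55, beside a median of 4.27. Dcn, with 8 GGAC and no peak, was thus near that median. The coding sequences of the chromosome 13 genes were low in G and C, with 35.8% for Omd, 38.3% for Aspn and 38.4% for Ogn, each below the 1st percentile of the same transcripts. Fmod and Prelp, neighbours on chromosome 1, had 56.3% and 56.5%.

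RefSeq promoter windows (GRCm38.p6, 250 bases before to 50 after the start) were matched for 8 members, not for Dcn and Lum. The 250 bases before the start are shown for Fmod, which fell most among the 8, and for Bgn, which rose, with CANNTG (the E-box) in capitals. Fmod is chr1:134037004-134037253 and Bgn chrX:73483351-73483600, both on the plus strand.
Fmod promoter: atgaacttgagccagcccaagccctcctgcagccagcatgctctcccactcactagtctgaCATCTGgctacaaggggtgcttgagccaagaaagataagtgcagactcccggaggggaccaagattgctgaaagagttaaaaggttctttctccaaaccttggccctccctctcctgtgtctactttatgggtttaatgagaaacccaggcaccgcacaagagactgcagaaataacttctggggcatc
Bgn promoter: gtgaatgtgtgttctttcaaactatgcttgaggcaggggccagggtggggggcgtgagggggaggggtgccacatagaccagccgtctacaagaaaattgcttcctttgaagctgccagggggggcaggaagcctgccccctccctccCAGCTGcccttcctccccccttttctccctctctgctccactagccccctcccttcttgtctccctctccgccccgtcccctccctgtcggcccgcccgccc
The Bgn stretch is 64.4% G and C and that of Fmod 51.2%. On both strands of the whole windows, 4 sequences were searched, none of which contains another. CANNTG was present in 6 of the 8 members (72.3% of 32851 promoters) and the TATA core TATAAA in Aspn and Ogn (13.6%). The TATAAA matches began at −207 and −178 from the start in Aspn and at −229 and −227 in Ogn. The AP-1 sequence TGAGTCA (5.20% of promoters) and the CRE core TGACGT (7.51%) were in none of the 8. No match says only that these letters are not in the window.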

How the data were processed

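RNA-seq reads were mapped by the authors with HISAT2 2.0.4, and the submitters' notes name mm10 and mm9 as builds and TopHat and MACS2 as further tools without saying for which data. Estimated counts, not normalized, were deposited for each gene, with a column headed FPKM whose sum is the same 1e+06 in every library and which was therefore read as TPM. For each peak the deposited list gives the pileup signal, a fold enrichment (ratio) and q-values as −log10, all from the authors' caller. Whether samples were pooled is not given in the sources used here. The list's positions are those of mm9 and were placed by their summit on GENCODE vM1 gene models, and those of the expression table are GRCm38.

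The 89 entries without a gene name (0.110% to 0.125% of counts) were left out. Counts were rounded, filtered (filterByExpr) and TMM-scaled, and edgeR 4.0.16 was used for the test (quasi-likelihood, two-sided, Benjamini-Hochberg over 15327 genes). The script was tested on simulated data in which all libraries had the same spread. That trial does not cover the unequal spread of the real pairs. Alternatives used DESeq2 1.42.0 and limma 3.58.1. Intervals cover counting error or the fit only. The members and the lists were chosen with earlier results of these data known. Besides the 10 members, the genes named are the 2 most abundant of each of the 6 lists of related genes with its largest rise and fall past an adjusted p of 0.05, the 3 genes nearest in profile to the 2 members with the largest change, and the cluster neighbours Ecm2 and Optc. Other genes are markers or overlapping genes, except Adamts4, Chil1 and Xlr3b, which were named after their values were seen. Protein identity was computed from translated GENCODE vM1 coding sequences with biopython 1.88 and Python 3.11.15.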

Additional observations from a re-analysis of the deposited data

How the results depend on the processing

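Over 11 alternatives, Lum (log2 fold change −7.35 to −6.05), Dcn (−4.98 to −4.70), Fmod (−3.64 to −3.50), Prelp (−1.48 to −1.16), Omd (−1.78 to −1.0) and Ogn (−0.73 to −0.56) kept their direction and an adjusted p under 0.05. Bgn kept its direction (0.35 to 0.48) and passed in 8 of the 11. Aspn was −0.14 without the first WT-labelled library and 0.39 without the second, and the cause was not tested. Leaving out 1 library moved the count of genes passing from 4677 to between 1867 and 8750, the count of members passing from 7 to between 6 and 9 and that of the lists' genes from 46 to between 35 and 66. With 1 library in a group its spread is assumed to be that of the other pair, and the cKO-labelled pair varied by 1.9% against 12.3%. With the cKO-labelled pair summed to 1 library, chosen after seeing the data, 2012 genes passed. Of all genes passing, 2100 were higher and 2577 lower. limma gave 1779 and 1442 on log2(TPM + 0.1), and 1775 and 1414 on log2(TPM + 1). With the replicate block, 4881 genes and the same number of members (7) passed. The deviations of same-numbered libraries had a correlation of 0.0352 over 13302 genes. With so little spread in the cKO-labelled pair, this value cannot tell whether same-numbered libraries were paired. Of the 3 m6A peaks, 1 (Fmod) had a −log10 q above 10 and 0 had a fold enrichment of at least 3. Depth limits Epyc and Kera, where 3 counts in a group correspond to 0.0483 CPM (WT-labelled) and 0.0535 CPM (cKO-labelled).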
